A study of Homo sapiens with 2 samples.

Results

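Of 52 listed genes of chromosome band 3p21, running in order from UQCRC1 to DUSP7, 45 were measured above background in both the lung cancer line HARA and its bone-metastatic subline HARA-B4, and 40 of these 45 had a lower signal in HARA-B4. The genes are found by the symbol that the platform annotation gives to a probe set, and they were selected on the difference between the 2 lines itself, because these neighbours had been seen to stand lower together. Every difference between the lines below is therefore a description of the values that chose the group, with no test. Of the 52 genes, 49 had a probe set assigned to that gene alone, out of 19775 genes so named on the array. TUSC2, GMPPB and UBA7 had none and are not analysed here. ZMYND10 and ACY1 were below background on both arrays, PARP3 was above it in HARA only and HYAL3 in HARA-B4 only.

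HARA is an established cell line from a human squamous lung cancer, and HARA-B4 is a subline of it with a high capacity to form bone metastases. Both were grown in the same medium with serum and antibiotics, and total RNA of each was labelled with biotin and hybridised to 1 Affymetrix array. There was 1 array per line and no replicate, so no p-value or biological spread can be given, and each line stands for itself only. Deposited values are probe set signals on a linear scale, and a difference is the log2 signal in HARA-B4 minus that in HARA, so that -1 is a 2-fold lower signal.

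The 2 arrays were deposited at near equal overall levels, where the mean without the outer 2% was 115.6 for HARA and 116.0 for HARA-B4. The background level was a signal of 27.1, the 95th percentile of 165 probe sets for receptors of smell, taste and pheromones, which a lung line has little cause to use. Over all 10207 genes above it on both arrays the median difference was 0.019, and the 25th and 75th percentiles were -0.27 and 0.28. Several probe sets of 1 gene differed among themselves with an SD of 0.30 (4830 genes), a technical spread that says nothing of repeated cultures. The 5 squamous markers with a probe set (KRT5, KRT14, DSG3, SFN and PKP1) were all above background in both lines. Of the markers of blood, fibroblasts, endothelium, osteoclasts and neuroendocrine cells, HBB, COL1A1 and PECAM1 were above it, and PTPRC, CD3E, COL1A2, COL3A1, DCN, LUM, PDGFRB, VWF, CDH5, KDR, CTSK, CALCR, CHGA, SYP and INSM1 were below it in both lines.

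The short arm of chromosome 3 is among the regions most often lost in lung cancer, and its band 3p21 holds a dense run of genes that have been studied as lung tumour suppressors. RASSF1 is the best known of them, a scaffold of the Hippo kinases whose promoter is often methylated in lung tumours. The band also carries many housekeeping genes, of the mitochondrion, the ubiquitin system, RNA processing and cell signalling, and these lie beside each other with no common function.

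The 45 genes had a median log2 difference of -0.49, with the middle of the distribution from -0.67 to -0.25 and the whole range from -1.48 to 0.51. A negative difference was found in 40 of 45 (88.9%), beside 47.8% of all genes. A signal at least 1.5-fold lower in HARA-B4 was found in 17 of 45 (37.8%), beside 10.2%, and one at least 2-fold lower in 6 of 45 (13.3%), beside 3.57%. In the other direction 0 of 45 were 1.5-fold higher, beside 9.56%, and so 0 were 2-fold higher, beside 3.13%. IFRD2 and HYAL2, each at -0.64, lay just inside the 1.5-fold limit, and QRICH1 and WDR6, each at -0.58, just outside it. Most of the genes thus stood lower by a modest amount, and few by a large one. In RNA of whole cultures, fewer cells with a transcript and less of it per cell cannot be told apart. The size of the difference showed little relation to the level of the signal across the 45 genes (Pearson r 0.073, Spearman rho -0.0063), which share the same 2 arrays. The 23 brighter genes had a median of -0.54 and the 22 dimmer ones -0.47.

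**Figure D1:**
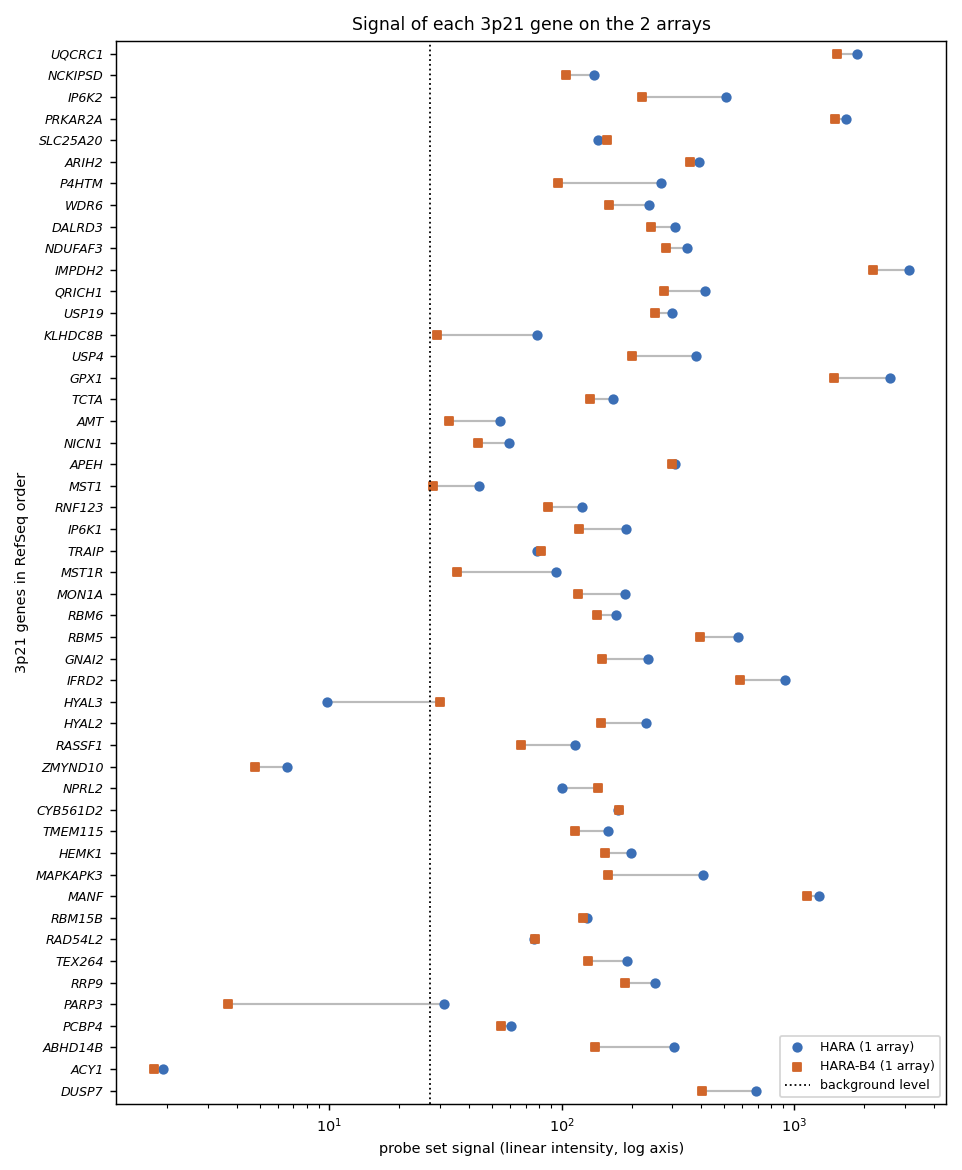
Signal of each of the 49 genes with a probe set (log axis), in RefSeq order from UQCRC1 at the top to DUSP7 at the bottom, with HARA as circles and HARA-B4 as squares, 1 array each, and the background signal of 27.1 as a dotted line. The squares lie to the left of the circles for 40 of the 45 genes above background on both arrays, and among these 45 NPRL2 shows the widest gap the other way.

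Genes of the tumour suppressor cluster around RASSF1 did not all stand lower. RASSF1 gave 114 in the HARA array and 66.6 in the HARA-B4 array, a difference of -0.78 or 1.71-fold. HYAL2, a hyaluronidase anchored to the cell surface, had 231 and 148 (-0.64), and TMEM115, a Golgi membrane protein, had 159 and 114 (-0.48). CYB561D2, a cytochrome b561 family protein, had 175 and 177 (0.016). NPRL2, a subunit of the GATOR1 complex that restrains mTORC1 when amino acids are scarce, had 101 in HARA and 143 in HARA-B4 (0.51). It was the highest difference in the whole group. Of the 8 genes listed in this cluster, 5 could be compared, 3 of them lower (60%, beside 47.8% of all genes), with a median of -0.48. All of these but CYB561D2 were read from probe sets of the _s_at kind, which can match several transcripts, and without such probe sets it alone was left (0.016). HYAL3, another hyaluronidase, had 9.80 in HARA, below background, and 29.9 in HARA-B4, just above it, so that its bound is only 1.10-fold. ZMYND10, needed to assemble the dynein arms of cilia, had 6.59 and 4.77, both below background.

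Signalling genes were lower in HARA-B4 in 9 of 9 cases, with a median of -0.66. That is 100%, beside 47.8% of all genes and 88.9% of the 45 genes, which were chosen for lower signals. Of the 9 signalling genes, 7 were at least 1.5-fold lower (77.8%, beside 10.2% of all genes). MST1R encodes RON, a receptor tyrosine kinase of the MET family, and its signal was 94.5 in the parental line and 35.5 in the subline (-1.41, 2.67-fold). MST1, the ligand of RON, had 44.2 and 28.0 (-0.66), and the second of these values lay just above the background level. This MST1 probe set is of the _x_at kind, which can match several transcripts. Its other probe set, at 22.9 and 6.04, was below background on both arrays. Ligand and receptor thus both stood lower on the probe sets read, at dim signals in HARA-B4, and the ligand was dim in HARA too. MAPKAPK3, a kinase activated by p38, had 405 and 158 (-1.36), and DUSP7, a phosphatase that acts on ERK, had 684 and 402 (-0.76). IP6K2 and IP6K1 make inositol pyrophosphates. IP6K2 had 510 and 221 (-1.21), although its other probe set differed by only -0.29, and IP6K1 had 189 and 119 (-0.66). GNAI2, an inhibitory G protein alpha subunit, had 236 and 149 (-0.66). The smallest differences belonged to NCKIPSD, an adaptor of actin regulation (138 and 105, -0.40), and PRKAR2A, a regulatory subunit of protein kinase A (1669 and 1506, -0.15).

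Enzymes of the mitochondrion and of metabolism were lower in 8 of 9 cases (88.9%, beside 47.8% of all genes), with a median of -0.51. Of them 4 were at least 1.5-fold lower (44.4%, beside 10.2% of all genes). P4HTM, a prolyl 4-hydroxylase of the endoplasmic reticulum membrane, had 269 in HARA and 96.3 in HARA-B4. That difference of -1.48, or 2.79-fold, was the lowest of the 45. ABHD14B, a hydrolase, had 305 and 140 (-1.13). GPX1, the selenium-dependent glutathione peroxidase of the cytosol, had 2592 and 1483 (-0.81), and AMT, the aminomethyltransferase of the glycine cleavage system, 54.5 and 32.7 (-0.74). IMPDH2, which catalyses the rate-limiting step of guanine nucleotide synthesis, had 3121 and 2191 (-0.51). The respiratory chain genes differed less: NDUFAF3, an assembly factor of complex I, had 348 and 281 (-0.31), and UQCRC1, a core subunit of complex III, had 1878 and 1527 (-0.30). APEH, an acylpeptide hydrolase, had 309 and 299 (-0.045). The carnitine-acylcarnitine carrier SLC25A20 had 144 and 157 (0.13) and was the only one of the 9 with a higher signal in HARA-B4. ACY1, an aminoacylase, was below background on both arrays.

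In the ubiquitin list 5 of 6 genes were lower (83.3%, beside 47.8% of all genes), with a median of -0.37. In this list 2 were at least 1.5-fold lower (33.3%, beside 10.2% of all genes). KLHDC8B, a kelch-repeat protein known from cytokinesis and listed there for its domain, had 78.2 in HARA and 29.1 in HARA-B4 (-1.43), the latter close to background. USP4, a deubiquitinase, had 377 and 201 (-0.91). Its probe sets did not all point the same way, since a dim one differed by 0.38 and the remaining one by -0.92. RNF123, a RING ubiquitin ligase, had 123 and 87.5 (-0.49). USP19, a deubiquitinase anchored in the endoplasmic reticulum, had 299 and 252 (-0.25), and ARIH2, a ligase that works with cullin 5, had 389 and 356 (-0.13). TRAIP, a ligase of the replication fork, had 78.2 and 81.8 (0.065).

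Genes of RNA and DNA metabolism were lower in 10 of 11 cases (90.9%, beside 47.8% of all genes). The amounts were smaller, with a median of -0.37. Only 1 was at least 1.5-fold lower (9.09%), a share near the 10.2% of all genes. That gene was IFRD2, a ribosome-binding protein, at 915 in HARA and 586 in HARA-B4 (-0.64). This share rests on the limit, since QRICH1 and WDR6 lay just outside it. The median of the 11 was still below the 25th percentile of all genes (-0.27). The splicing factors RBM5 and RBM6, neighbours of related sequence that have both been studied as tumour suppressors, had 574 and 394 (-0.54) and 172 and 142 (-0.28). QRICH1, a transcriptional regulator of the stress response, had 414 and 277 (-0.58). WDR6, a partner in tRNA methylation, had 237 and 159 (-0.58), RRP9, of the U3 small nucleolar particle, 251 and 188 (-0.42), and HEMK1, a methyltransferase, 198 and 154 (-0.37). The other values ran from -0.35 in DALRD3, a tRNA modification factor, through PCBP4 (-0.14) and RBM15B (-0.051), of the RNA methylation complex, to 0.024 in RAD54L2. PARP3, a DNA repair polymerase of ADP-ribose, had 31.2 in HARA and 3.66 in HARA-B4. Since the second value lies below background, its signal was at least 1.15-fold lower and no more can be said of its size.

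The 5 remaining genes were all lower (100%, beside 47.8% of all genes), with a median of -0.45. MON1A, part of the exchange factor of Rab7, had 187 and 118 (-0.67), and TEX264, a receptor for selective autophagy of the endoplasmic reticulum, had 191 and 130 (-0.56). NICN1, of the tubulin polyglutamylase complex, had 59.3 and 43.5 (-0.45), and TCTA had 167 and 132 (-0.34). MANF, a secreted protein of the endoplasmic reticulum stress response, had 1285 and 1136 (-0.18).

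Probe sets of 1 gene mostly pointed the same way. Of 86 probe sets of these genes, 65 were above background on both arrays, and 58 of the 65 were negative. Some of the 65 are the only such probe set of their gene, and these say nothing of agreement. In 14 genes with 2 or more such probe sets, all were negative in 11, and 3 had both signs, namely ARIH2 (-0.69 to 0.14), USP4 (-0.92 to 0.38) and RAD54L2 (-0.38 to 0.024). These counts have no share over all genes beside them. They come from genes picked for lower signals on the same arrays, so mostly negative signs follow in part from that choice. MAPKAPK3 was lower by both of its probe sets, at -1.36 and -0.83, and RBM5 by both of those above background, at -0.54 and -0.67. RBM6 differed by -0.28 on its brighter probe set and by -0.86 on a dimmer one. The size of a single gene's difference can thus move by more than the shift of the group, depending on the probe set.

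**Figure D2:**
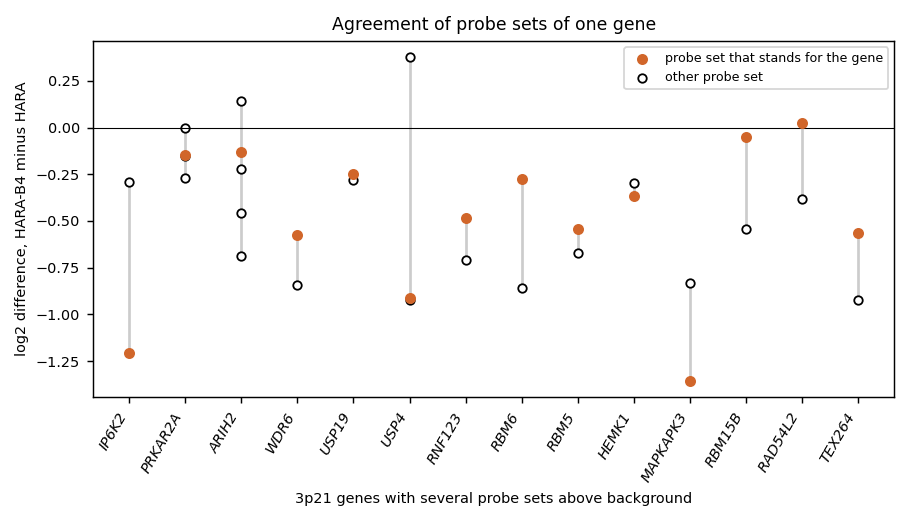
Log2 difference, HARA-B4 minus HARA, of every probe set above background on both arrays in the 14 genes with 2 or more of them, with filled points for the probe set that stands for the gene and open points for the others. The points lie below 0 in 11 of the 14 genes.

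The lower signals were spread over the whole interval. The 19 genes from UQCRC1 to NICN1 had a median of -0.45 with 18 negative (94.7%, beside 47.8% of all genes). From APEH to RBM5, the 9 measured had -0.54 with 8 negative (88.9%). From GNAI2 to HEMK1, the 8 measured had -0.56 with 6 negative (75%). From MAPKAPK3 to DUSP7, the 9 measured had -0.42 with 8 negative (88.9%). The longest unbroken stretch of negative differences held 20 successive measured genes, from ARIH2 to INKA1. Within it lie RHOA and INKA1, which are not in the list.

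The shift was not bounded by the ends of the list. Before UQCRC1, the nearest measured genes were COL7A1 (-0.45), PFKFB4 (-0.55), SHISA5 (-0.82), TMA7 (-0.090) and CCDC51 (-0.55), and after DUSP7 they were POC1A (0.16, but -0.42 on another probe set), ALAS1 (-0.40), TWF2 (-0.63), WDR82 (-0.81) and PHF7 (-0.36). The 15 nearest genes before the interval had a median of -0.42 with 14 negative (93.3%). The 15 after it had -0.54 with 14 negative (93.3%), beside 47.8% of all genes. Both flanks thus stood about as low as the listed genes. Inside the interval, 6 measured genes are not on the list, with a median of -0.30 and 5 negative (83.3%). The semaphorin SEMA3F, which repels endothelial and tumour cells and has itself been studied as a tumour suppressor, had 487 in HARA and 134 in HARA-B4. Its difference of -1.86 was lower than that of any of the 45 listed genes. RHOA (-0.20), INKA1 (-0.49), DCAF1 (-0.38) and RPL29 (-0.22) were lower too, and CISH was at 0.29 on its main probe set and -0.56 on its other one.

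Farther away the 3p values parted. The 139 measured genes of 3p that lie toward the telomere beyond the nearest 15 had a median of 0.028 with 63 negative (45.3%). The 51 that lie toward the centromere had -0.28 with 43 negative (84.3%), and the 310 of 3q had -0.12 with 195 negative (62.9%). A running median over 25 successive genes was lowest from RNF123 to TRAIP, at -0.64, and that was also its lowest value anywhere on chromosome 3. Around this stretch the running median stayed below the 25th percentile of all genes (-0.27) over 103 genes, from CDCP1 to IL17RD, of which 45 are the listed ones and 58 are others with a median of -0.36. The listed genes thus lie within a longer stretch with lower signals. Its end at IL17RD depends on the limit. Past that gene the running median rose only to -0.22, and it was below -0.27 again from PXK to LINC00960.

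**Figure D3:**
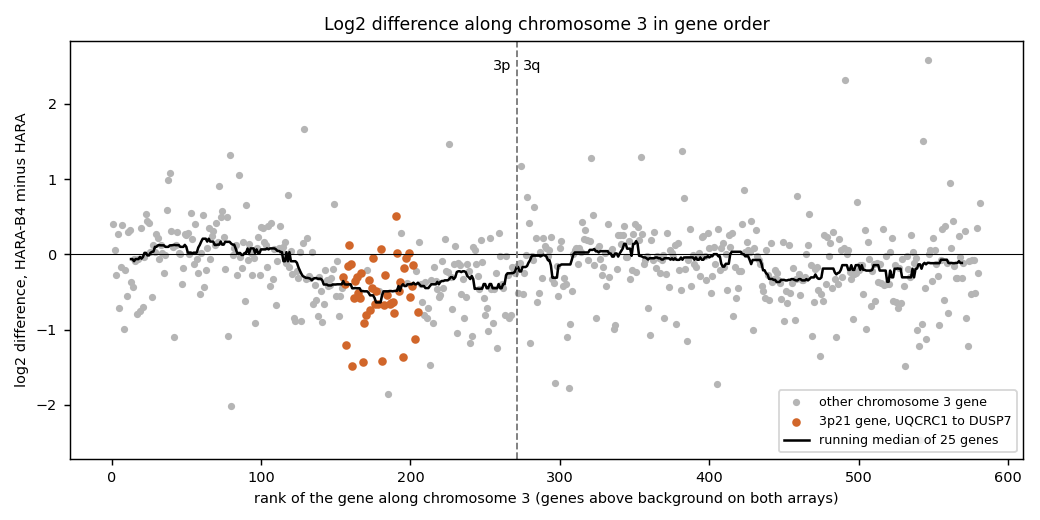
Log2 difference, HARA-B4 minus HARA, of 581 genes of chromosome 3 above background on both arrays, by rank along the chromosome, with the 45 listed 3p21 genes coloured, the running median of 25 genes as a line and the boundary of the arms dashed. The line lies near 0 over the telomeric part of 3p, is lowest at -0.64 among the coloured points and stays below 0 on toward the boundary of the arms.

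**Figure D4:**
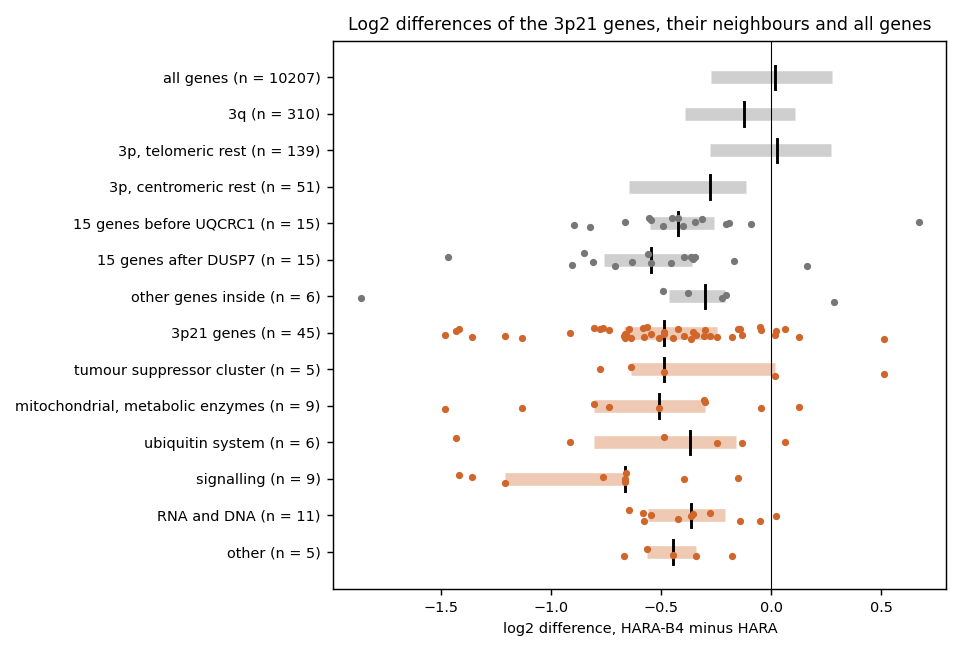
Log2 difference, HARA-B4 minus HARA, with the median as a black line, the 25th to 75th percentile as a band and single genes as points for the smaller sets. The medians of the 45 genes (-0.49) and of the 15 genes on either side (-0.42 and -0.54) lie below the 25th percentile of all genes (-0.27), and signalling genes have the lowest median of the role groups (-0.66).

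Other 3p genes, most of them studied as tumour suppressors, were listed from general knowledge. Many of those measured lie in the low stretch from CDCP1 to IL17RD described above, namely LIMD1, SETD2, CDC25A, RHOA, SEMA3F, CISH, RPL29 and PBRM1. FOXP1 lies in the further low part from PXK to LINC00960. The genes of this list are thus no separate set. Of 14 above background on both arrays, 10 were negative (71.4%, beside 47.8% of all genes). A signal at least 1.5-fold lower was found in 5 (35.7%, beside 10.2%) and one at least 2-fold lower in 3 (21.4%, beside 3.57%). In the other direction 0 were 1.5-fold higher, beside 9.56%. Their median was -0.33. SEMA3F led them, followed by the transcription factor FOXP1 (-1.25), the DNA damage sensor XPC (-1.10) and the guidance receptor ROBO1 (-0.84). The TGF-beta receptor TGFBR2 (0.23) and beta-catenin, CTNNB1 (0.38, but -0.11 on its other probe set), were among the 4 positive ones. RARB, DLEC1, FHIT and SEMA3B were among 8 that were below background on both arrays.

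Partners of these genes that are encoded mostly on other chromosomes gave mixed values. In the GATOR1 and mTORC1 nutrient list, 8 of 13 genes were negative (61.5%, beside 47.8% of all genes) and their median was -0.39. A 1.5-fold lower signal was found in 4 (30.8%, beside 10.2% of all genes), and 0 were higher by as much, beside 9.56%. The 4 were the sestrin SESN2 (-0.97) and the GATOR2 subunits SEH1L (-0.87), WDR59 (-0.85) and WDR24 (-0.68). NPRL3, which binds NPRL2 in GATOR1, was at -0.39 on its main probe set, and its 3 probe sets ran from -0.39 to 0.17. Around RASSF1, 7 of 15 RASSF and Hippo genes were negative (46.7%, near the 47.8% of all genes), with a median of 0.0039. Their widest values were SAV1, the adaptor of the Hippo kinases (-1.63, but -0.31 on another probe set), the kinase STK4 (0.65, but 0.046 on its other probe set) and RASSF8 (-0.61), and RASSF6, above background in HARA only, was at least 3.70-fold lower. In the RON and HGF list, MET, the kinase most like RON, was at -1.24, and its 4 probe sets ran from -1.64 to -0.73. The protease inhibitor SPINT2 was at 0.44 on its only probe set above background. The main probe sets of the protease inhibitor SPINT1 (0.41) and the protease ST14 (0.27) were positive, while the other one of each was negative, at -0.21 and -0.50. The median over the 4 genes, 0.34, thus rests on the choice of probe set. For hyaluronan, the median over 4 genes was -0.061, and the synthase HAS3 was at -1.55 on one probe set and -0.044 on the other.

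Lists around the enzymes were as mixed. Among 6 genes of inositol pyrophosphates the median was 0.071, with IPPK at 0.76 and ITPK1 at -0.59. Complex III had a median of -0.17 in 7 genes, with UQCR11 at -0.78 and, by another probe set, 0.34. Of 5 subunits of protein kinase A encoded elsewhere, 1 was negative (20%, beside 47.8% of all genes) and 4 were higher. The median of the 5 was 0.40, with the catalytic PRKACB at 1.06. One of the 4, PRKAR1B, was at 0.50 and, by another probe set, -0.028. Of 3 glutathione peroxidases, GPX2 was at -1.06, GPX8 at -0.57 and GPX4 at 0.20, with a median of -0.57. The ISG15 conjugation list, in which UBA7 is the activating enzyme, had a median of -0.032 in 6 genes, with ISG15 itself at 1.21 (225 in HARA and 521 in HARA-B4).

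The promoters of these genes are mostly rich in CpG dinucleotides. RefSeq (GRCh38.p14) gave a promoter for 49 of the 52 genes, and the most upstream start in that table was taken where there were several. Over the 250 bases before the start the median GC content was 67.2% and the median ratio of observed to expected CpG was 0.83, and 41 of 49 (83.7%) had a ratio above 0.6. Over 15842 protein-coding genes the corresponding figures were 62.0%, 0.73 and 63.2%. A set of 7 motifs was searched on both strands from 250 bases before to 50 after the start, with the share over protein-coding genes beside each. GGGCGG, the core of the GC box, was in 73.5% (58.3%), CCGGAAG, an ETS core, in 30.6% (14.2%), the NRF1 motif, a palindrome of CG and GC steps, in 26.5% (8.58%), and CCAAT in 36.7% (36.4%). TATAAA was in 2.04% (9.75%), the YY1 motif in 6.12% (1.88%), and TGACGTCA, the cyclic AMP response element, in 0 of 49 (2.56%). All but CCAAT and TATAAA hold a CG, whether their shares follow CpG content was not tested, and a match is only a match of letters.

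The promoters of the 3 genes with the lowest differences are shown to compare their sequences. Each is the 250 bases before the start in GRCh38.p14, read on the gene's own strand, with matches to any of the motifs in capitals. P4HTM is at chr3:48989658-48989907 on the plus strand, KLHDC8B at chr3:49171348-49171597 on the plus strand and MST1R at chr3:49903874-49904123 on the minus strand.
P4HTM: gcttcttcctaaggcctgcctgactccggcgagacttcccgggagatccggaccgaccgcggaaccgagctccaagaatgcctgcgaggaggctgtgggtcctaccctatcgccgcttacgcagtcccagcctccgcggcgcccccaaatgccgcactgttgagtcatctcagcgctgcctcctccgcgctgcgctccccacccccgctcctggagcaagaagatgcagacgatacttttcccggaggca
KLHDC8B: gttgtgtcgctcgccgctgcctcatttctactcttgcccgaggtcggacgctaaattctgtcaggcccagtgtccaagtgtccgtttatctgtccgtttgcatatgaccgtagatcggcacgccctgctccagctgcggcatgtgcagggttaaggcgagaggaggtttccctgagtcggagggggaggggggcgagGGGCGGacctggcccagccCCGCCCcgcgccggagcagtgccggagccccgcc
MST1R: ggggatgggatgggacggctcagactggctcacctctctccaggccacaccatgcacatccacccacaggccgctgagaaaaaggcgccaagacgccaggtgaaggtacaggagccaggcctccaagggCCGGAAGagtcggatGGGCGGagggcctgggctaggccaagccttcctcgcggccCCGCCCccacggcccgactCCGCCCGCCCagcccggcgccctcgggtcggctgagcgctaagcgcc
P4HTM, at the lowest difference (-1.48), had 0 matches to any of them, KLHDC8B had 2 GC boxes and MST1R had 4 GC boxes and 1 ETS core. No motif of the set was thus in all 3.

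Some of these genes start back to back with a neighbour. NPRL2 and CYB561D2 start 86 bases apart on opposite strands, and they are the highest of the 45 (0.51) and another of the 5 positive ones (0.016). MST1 and RNF123 start 82 bases apart and stood at -0.66 and -0.49. The bases between the starts are printed on the plus strand, with the motifs in capitals, for chr3:50350776-50350861 and chr3:49689475-49689556 of GRCh38.p14.
NPRL2-CYB561D2: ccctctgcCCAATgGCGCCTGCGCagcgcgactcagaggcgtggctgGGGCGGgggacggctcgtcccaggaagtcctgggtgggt
MST1-RNF123: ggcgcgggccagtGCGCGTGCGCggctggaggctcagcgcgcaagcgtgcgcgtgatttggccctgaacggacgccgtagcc
Both hold 1 NRF1 motif, and the first also a CCAAT and a GC box. TCTA and RHOA, 446 bases apart, were at -0.34 and -0.20. MAPKAPK3 and CISH, 102 bases apart, were at -1.36 and 0.29, but CISH was at -0.56 on its other probe set, so whether this pair differed in the same direction depended on the probe set.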

How the data were processed

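Total RNA of 2 cell lines was measured on 1 Affymetrix array each. The deposited values are linear intensities (signals) of 54675 probe sets per array. Per the submitters' processing notes the signals came from Affymetrix Expression Console. Its version, algorithm, background correction and scaling: not given in the sources used here. These steps bear most on low signals, and the number of arrays limits precision.

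From these values log2 signals were taken with no further scaling (Python 3.11.15, pandas 2.3.3). Of the probe sets, 41097 carry 1 gene symbol and were used, 1801 carry several and 11777 none, and 41043 matched RefSeq by Entrez ID. Each gene was represented by its brightest probe set (mean over both arrays). The background level was 4.76 on the log2 scale. A gene above it on 1 array took that level on the other, so its fold is a bound. Folds of 2 and 1.5 described sizes, with no test. RefSeq (GRCh38.p14) gave gene order, and EPHA3 was taken as the last gene of 3p. Every listed gene was accounted for, with the 5 nearest genes on either side. Of each other list up to 4 genes were to be named, and more were named from the other 3p list and the GATOR1 list. The members and lists were chosen with earlier results of these data known. The scripts were tested on simulated data. Alternatives covered scaling, background, probe set choice and pseudocount. A planned comparison of protein sequences was not run here, and genes with no probe set of their own are not analysed here.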

Additional observations from a re-analysis of the deposited data

How the results depend on the processing

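No paired analysis was possible because each line has 1 array. Under the 8 alternative settings (3 scalings, 2 background levels, 2 probe set rules and a pseudocount of 16), and with brighter, dimmer or far-from-background genes alone, the median of the 3p21 genes ran from -0.54 to -0.37. From 4 to 6 genes were at least 2-fold lower under the 8 settings and among far-from-background genes, and 3 each among the brighter and the dimmer ones. The choice of far-from-background genes, which left out genes within 1 of background, was made after seeing the data. Without _x_at and _s_at probe sets, which can match several transcripts, 27 genes were left, of which 23 were negative and 9 at least 1.5-fold lower, and the tumour suppressor cluster came down to CYB561D2 alone (0.016). UQCR11 was then at 0.34. With 2 or more probe sets required to be all negative, 11 of 14 genes counted. Without the 50 bases after the start, the YY1 motif was in 0 of 49 promoters. Under the 3 scalings, from 39 to 41 of the 45 genes were negative. No listed gene at 1.5-fold changed sign. Genes near background, such as MST1 and KLHDC8B, have the least certain sizes.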

Other observations

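The listed genes were also compared by strand, a split made after their values were seen. The 25 on the minus strand had a median log2 difference of -0.64, and the 18 on the plus strand had -0.35. A signal at least 1.5-fold lower in HARA-B4 was found in 13 (52%) and 4 (22.2%) of them, beside 10.2% of all genes of either strand. The share of negative differences was near equal, at 88% and 88.9%, and 3 genes on each strand were at least 2-fold lower. IMPDH2 and NICN1, for which no strand was at hand, are in neither. The difference between the strands was not tested.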
